A study of Brassica rapa subsp. pekinensis with 6 samples.

Results

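Abscisic acid is the plant hormone of drought, seed dormancy and leaf ageing. It is perceived by soluble receptors of the PYR/PYL family, which, once bound to the hormone, block protein phosphatases of the PP2C class. In the absence of the hormone those phosphatases hold SnRK2 protein kinases inactive, and once released the kinases phosphorylate bZIP transcription factors such as ABI5 and the ABF proteins. In Arabidopsis, abscisic acid is known to raise the transcripts of several of these phosphatases and to lower those of several receptors.

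The genes described here are the rows of the deposited gene table whose protein description names an abscisic acid receptor, one of 6 numbered PP2Cs of this pathway (the ABI1, ABI2, HAB1, HAB2, AHG and PP2CA kind), a SRK2 kinase, or abscisic acid-insensitive 5 and its like. The choice used the description of the best Swiss-Prot match and no expression value. It gave 31 of 13225 listed genes: 14 receptors, 5 PP2Cs, 4 SnRK2 kinases and 8 genes of the ABI5 group. All 31 had an Arabidopsis best match, and these matches fell on 18 different proteins. PYR1, ABI2, HAB1, HAB2, SRK2D and SRK2I were not among those matches and are not analysed here.

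The study compared leaf mRNA of Chinese cabbage (Brassica rapa subsp. pekinensis) between doubled haploid plants, which carry 2 identical chromosome sets, and autotetraploid plants, which carry 4 sets of the same genome. Both kinds were derived from a single doubled haploid line named 'FT' and were raised side by side, with no treatment named, and no age beyond the growth stage. Mature leaves of the main stem, from beneath its lowest branch, were taken at bolting, with 3 libraries in each group that the submitters call biological replicates. Whether a library came from 1 plant or several is not given in the sources used here, so the p-values measure the spread between these libraries.

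For each gene the authors' deposited table holds the mean normalised read count of each group, the log2 fold change of autotetraploid over doubled haploid leaves, and an adjusted p-value. It lists genes with an adjusted p under 0.05, which were 37.8% of 34980 genes tested, so each member passed that test by being listed. Of all listed genes 50% were higher and 50% lower in the autotetraploid leaves. At least 2-fold changes made up 39.6% of the listed genes, with 16.6% higher and 23.0% lower. The library values given below were worked out from the group means, since a mean of 3 libraries is a sum of whole reads weighted by their size factors. Libraries are numbered by falling size factor, which ran from 1.01 to 0.926 in the autotetraploid and from 1.12 to 0.917 in the doubled haploid group, and these numbers are not the submitters' replicate numbers. Identifiers are printed without their shared prefix evm.TU.

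Markers fixed for the leaf blade (Rubisco small subunits, Rubisco activase and chlorophyll-binding proteins) were abundant, with 38 listed rows 33 of them higher in the autotetraploid, and sums of 1298165 normalised counts there against 792669 in the doubled haploid. Guard cell markers, a list that also took in the patterning peptides EPF1 and EPFL9, made up 6 listed rows, 2 higher and 4 lower. Their sums were 675 against 714, of which EPFL9 held 184 against 243 (BraA08000291). Vascular markers made up 8 rows, 3 higher and 5 lower, with sums of 1221 against 4346. Most of both sums came from a row of phloem protein 2-like A1, with 994 against 4028 (BraA01001190). Both laccase-5 rows were at 0 in the autotetraploid, against 27.2 and 14.8 in the doubled haploid. The 3 higher rows were all xylem cysteine proteinases. Root markers made up 4 rows, 2 of them higher, with sums of 4431 against 2528. Flower and pollen markers, without an oleosin that is also a seed marker, made up 8 rows, 7 of them lower, with sums of 999 against 1872. That oleosin was the sole seed marker listed, with 381 against 292, and no seed storage protein was listed. The part of these shifts in the results below was not tested. In whole leaves, fewer cells of a type and less RNA per cell cannot be told apart.

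Of the 31 genes, 16 were higher and 15 lower in autotetraploid leaves, with 10 at least 2-fold higher and 8 at least 2-fold lower. The median log2 fold change was 0.32, against 0.16 over all listed genes. Counted by role, 10 of 14 receptors were higher, 4 of 5 PP2Cs were lower, the SnRK2 kinases split 2 and 2, and 5 of 8 genes of the ABI5 group were lower. Neither the direction of a role nor the difference between roles was tested, since genes of a family are not replicates. The adjusted p in the authors' deposited table was under 0.001 for 21 of them and between 0.01 and 0.05 for 6.

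**Figure D1:**
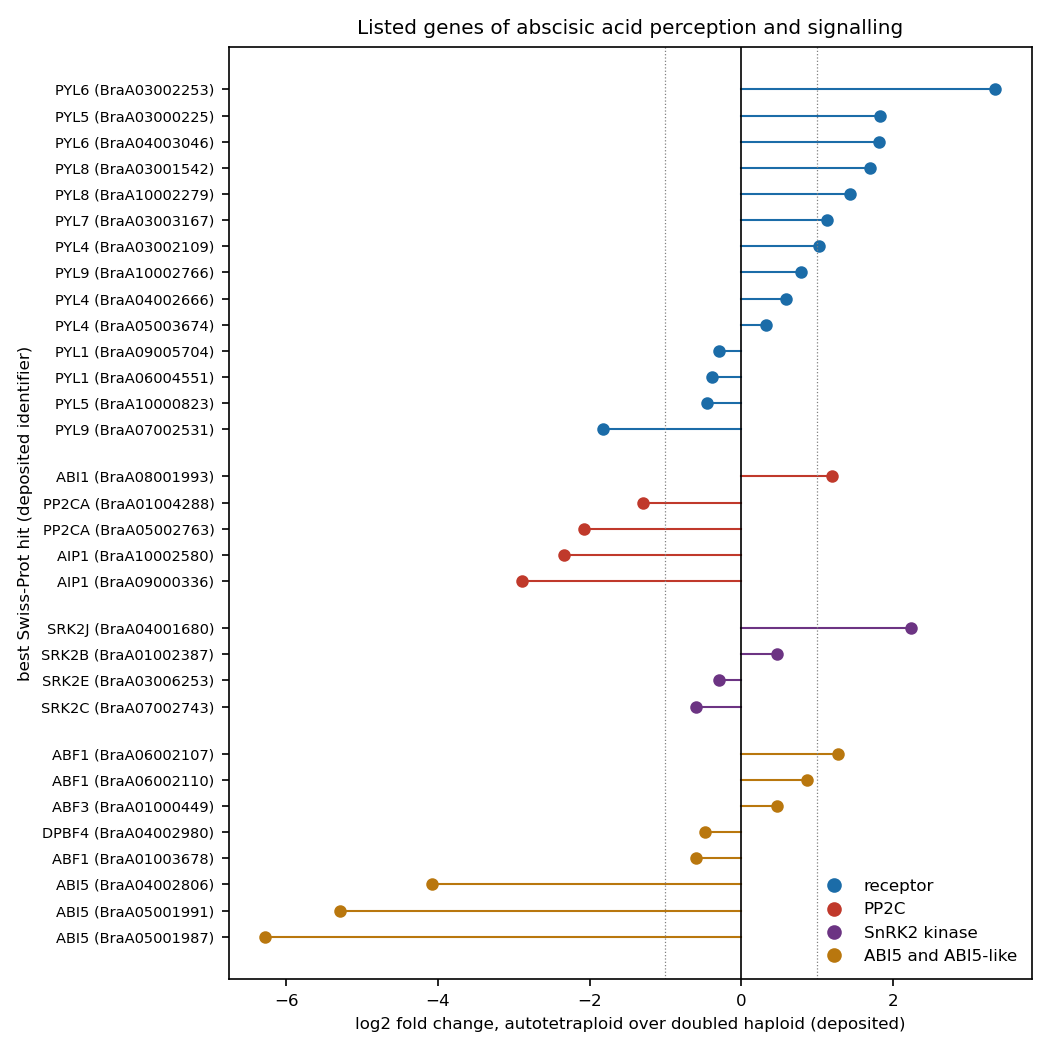
Log2 fold change (authors' deposited table) of each of the 31 genes, autotetraploid over doubled haploid, grouped by role, with dotted lines at 2-fold. Of the receptors 10 lie above 0, and of the PP2Cs 4 lie below it; the 3 ABI5 rows have the lowest values.

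The receptors as a set were mostly more abundant in the autotetraploid leaves, led by a PYL6 row. PYL6 and PYL8 are monomeric receptors in Arabidopsis, where PYL8 is known for its part in root growth under abscisic acid. Both PYL6 rows, both PYL8 rows, the PYL7 row and all 3 PYL4 rows were higher. Of the 14 receptors 7 were at least 2-fold higher and 1 at least 2-fold lower, and the median log2 fold change was 0.90. Summed over the 14 rows the autotetraploid leaves had 5247 normalised counts and the doubled haploid leaves 3853, a ratio of 1.36, in which long and abundant transcripts weigh most.

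PYL6 BraA03002253 had 17.9, 19.4 and 24 normalised counts in the 3 doubled haploid libraries. Its autotetraploid mean can be built from whole reads in 3 ways, with library values between 61.2 and 359.6, and in none of them did the groups overlap. The authors' deposited table gave means of 209 against 20.4 (log2 fold change 3.35, adjusted p 1.83e-50). No other of the 31 genes rose as far. The second PYL6 row, BraA04003046, had 122, 140.2 and 109 in the autotetraploid and 28.7, 40.7 and 36.0 in the doubled haploid libraries. Every autotetraploid library was therefore above every doubled haploid one, with means of 124 ± 15.6 and 35.1 ± 6.05 (SD, n = 3 each). In the authors' deposited table its log2 fold change was 1.82 with an adjusted p of 2.71e-14.

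PYL8 BraA03001542 had 322, 296 and 307 normalised counts in the doubled haploid libraries, a spread of 13 (SD, n = 3). All 6 ways of building its autotetraploid mean put every library above these, between 394 and 1508. Means of 997 and 308 stood in the authors' deposited table (log2 fold change 1.69, adjusted p 1.39e-65). The other PYL8 row, BraA10002279, had 55.6, 72.1 and 67.6 in doubled haploid leaves. Its autotetraploid mean has 3 possible builds, and the groups stayed apart in 2 of them. For this row the authors' deposited table gave 175 against 65.1 (log2 fold change 1.43, adjusted p 0.000332).

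PYL7 BraA03003167 rose to 808 from 368 in the authors' deposited table (log2 fold change 1.13, adjusted p 3.4e-13), and its doubled haploid libraries stood at 436, 331 and 337, below the autotetraploid libraries in 4 of 6 builds. The 3 PYL4 rows rose by less. BraA03002109 went from 119 to 241 (log2 fold change 1.02, adjusted p 1.86e-06) in the authors' deposited table. BraA04002666 went from 581 to 871 there, with 0.58 and 9.27e-10. The groups stayed apart in 2 of 4 builds for BraA03002109 and in 4 of 12 combinations for BraA04002666. Such counts treat all builds alike, however uneven their libraries. One build of BraA03002109 put the autotetraploid libraries at 203.5, 232.9 and 286.1, and another at 501.8, 176.4 and 44.3. BraA05003674 went from 430.3 to 538, with 0.32 and 0.0306 in the authors' deposited table. For this last row each of the 6 possible builds of the autotetraploid mean left the groups overlapping.

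PYL5 and PYL9 had 1 row in each direction. PYL5 BraA03000225 rested on the fewest reads of the receptors, with 42.5, 26.2 and 18.4 normalised counts in autotetraploid and 6.27, 7.40 and 10.9 in doubled haploid libraries. The groups did not overlap, on 86 and 25 reads in all, and the authors' deposited table gave 1.82 as its log2 fold change (adjusted p 0.00689). The other PYL5 row, BraA10000823, had 89.9, 90.7 and 110.1 in autotetraploid and 133, 113 and 153 in doubled haploid libraries. Its highest autotetraploid library came within a few counts of the lowest doubled haploid one, and the authors' deposited table gave -0.45 as its log2 fold change (adjusted p 0.0441). The limma fit to the library values, on log2(normalised count + 1), gave -0.44 ± 0.17 (SE) with an adjusted p of 0.0400. That call was lost without autotetraploid library 1 (adjusted p 0.101), autotetraploid library 2 (0.0987), doubled haploid library 1 (0.0882) or doubled haploid library 3 (0.123). The limma fit held only genes already listed for differing, so its call with all libraries is no separate support.

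PYL9 BraA07002531 was the only receptor at least 2-fold lower. It had 679, 702 and 652 normalised counts in the doubled haploid libraries, and both ways of building its autotetraploid mean put all libraries between 28.6 and 338. The groups thus did not overlap in either build. Means of 192 and 678 stood in the authors' deposited table (log2 fold change -1.82, adjusted p 3.04e-57). The other PYL9 row, BraA10002766, was higher, with 143 against 82.9 in the authors' deposited table (log2 fold change 0.78, adjusted p 0.000144). Its doubled haploid libraries lay at 82.4, 82.3 and 83.9, and 1 of 2 builds of the autotetraploid mean kept the groups apart.

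Both PYL1 rows, whose Arabidopsis counterpart is a dimeric receptor, were lower by less than 2-fold. BraA09005704 had 678 against 833 in the authors' deposited table (log2 fold change -0.30, adjusted p 0.00257). Of the 18 combinations of builds for its means, 2 kept the groups apart. BraA06004551 had 147 against 191 in the authors' deposited table, with -0.38 and 0.0424. The doubled haploid libraries of BraA06004551 stood at 182, 192 and 199, and 1 of 2 builds of its autotetraploid mean overlapped them.

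**Figure D2:**
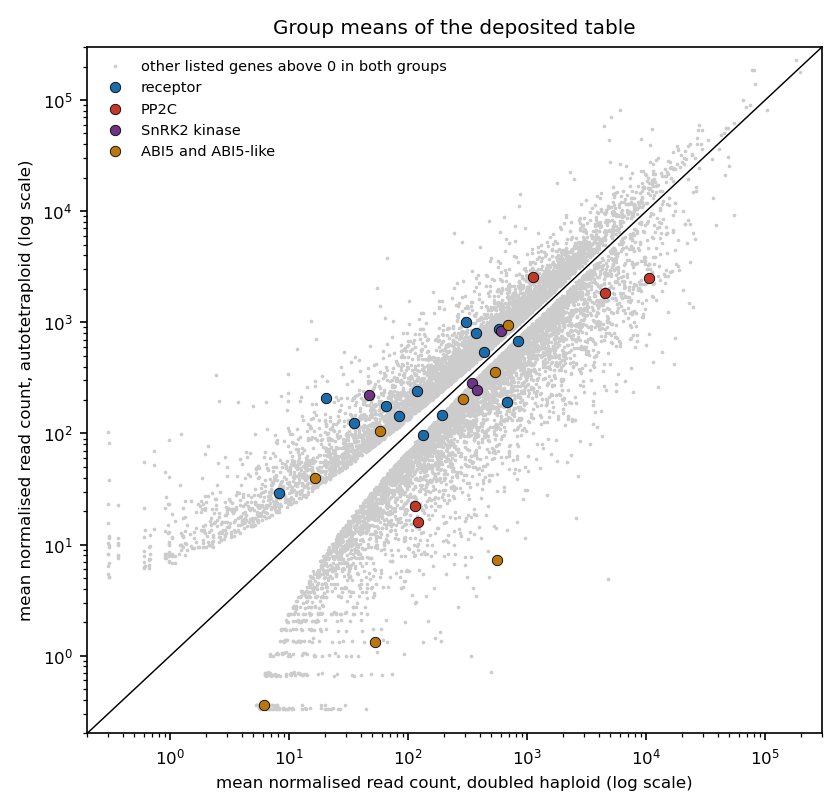
Group mean (authors' deposited table) of each of the 31 genes, doubled haploid on the x axis and autotetraploid on the y axis, in normalised read counts on log axes. Coloured points are the 31 genes and grey points the other listed genes; points above the diagonal are higher in autotetraploid leaves; PYL6 BraA03002253 lies at 20.4 and 209, and ABI5 BraA05001987 at 560.3 and 7.23.

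Of the PP2Cs 4 of 5 were lower, each at least 2-fold, and the 1 higher row was also at least 2-fold changed. Their normalised counts summed to 6945 in the autotetraploid against 16336 in the doubled haploid, a ratio of 0.425. The share lower was 80.0%, against 79.2% of the 48 other listed PP2Cs, outside the numbered set, and 50% of all listed genes.

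PP2CA, a phosphatase known in Arabidopsis for restraining abscisic acid responses in seeds and guard cells, had 2 rows and both were lower. BraA05002763 fell from 10519 to 2507 normalised counts in the authors' deposited table (log2 fold change -2.07, adjusted p 7.81e-215). BraA01004288 fell from 4463 to 1823 there (log2 fold change -1.29, adjusted p 1.98e-77). ABI1, the phosphatase whose dominant mutant made Arabidopsis insensitive to the hormone, was the exception: BraA08001993 had 2576 against 1121 in the authors' deposited table (log2 fold change 1.20, adjusted p 3.06e-57). No library values were worked out for these 3 rows, whose means are above 1000.

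Both AIP1 rows, named for a phosphatase that binds the potassium channel AKT1, were low in the autotetraploid. BraA09000336 had 12.8, 18.1 and 17.3 normalised counts in autotetraploid and 142, 102 and 117 in doubled haploid libraries. BraA10002580 had 21.7, 27.2 and 18.4 against 134, 105 and 101. In both rows every doubled haploid library exceeded every autotetraploid one several-fold. The limma fit gave log2 fold changes of -2.82 ± 0.20 (SE, adjusted p 3.44e-05) for BraA09000336 and -2.30 ± 0.20 (SE, adjusted p 7.88e-05) for BraA10002580. The fit held only genes already listed for differing, so these adjusted p-values are no separate support. The authors' deposited table gave -2.90 with an adjusted p of 1.94e-22 and -2.34 with an adjusted p of 1.96e-18.

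A further phosphatase of the same clade in Arabidopsis, outside the numbered set above, was listed as protein phosphatase 2C 78 (At5g59220). BraA10001908 had 5.93, 3.02 and 3.24 normalised counts in autotetraploid and 175, 160.0 and 163 in doubled haploid libraries. The groups lay far apart, and the authors' deposited table gave -5.35 as its log2 fold change (adjusted p 3.82e-60).

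The SnRK2 kinases showed mostly small changes, and 1 of the 4 passed 2-fold. SRK2J BraA04001680 had 57.4, 34.2 and 49.0 normalised counts in the doubled haploid libraries, and all 3 builds of its autotetraploid mean lay above them, between 88.9 and 387. Means of 222 and 46.9 stood in the authors' deposited table (log2 fold change 2.24, adjusted p 5.72e-32). Its match to SRK2J had a BLAST E-value of 4.00e-19, so the name rests on a weaker match than those of SRK2B, SRK2C and SRK2E.

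SRK2E, known in Arabidopsis as OST1, the kinase that closes stomata in response to the hormone, was slightly lower. BraA03006253 had 363, 328 and 346 normalised counts in the doubled haploid libraries, and 1 of the 3 builds of its autotetraploid mean kept the groups apart. For it the authors' deposited table gave 283 against 346 (log2 fold change -0.29, adjusted p 0.0393). SRK2C BraA07002743, with doubled haploid libraries at 365, 399 and 364, had 248 against 376 in the authors' deposited table (log2 fold change -0.60, adjusted p 3.72e-06). SRK2B BraA01002387, of a subclass that osmotic stress but not the hormone activates in Arabidopsis, had 837 against 605 in the authors' deposited table (log2 fold change 0.47, adjusted p 2.17e-05). The groups stayed apart in 2 of its 12 combinations of builds, and in 1 of 3 for SRK2C.

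The ABI5 group held the deepest falls of the 31 genes. ABI5 is the bZIP factor that arrests growth of germinating Arabidopsis seedlings under abscisic acid, and its 3 rows were all lower in autotetraploid leaves, with no library there above 9.72 normalised counts. BraA05001987 had 5.93, 6.05 and 9.72 normalised counts in the autotetraploid libraries. Its doubled haploid mean has 2 builds, with libraries at 478, 518 and 686 or at 199.9, 25 and 1456, and the groups overlapped in neither. Means of 7.23 and 560.3 stood in the authors' deposited table (log2 fold change -6.28, adjusted p 4.32e-43).

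ABI5 BraA05001991 had 0.988, 3.02 and 0 normalised counts in autotetraploid and 61.8, 53.6 and 42.5 in doubled haploid libraries. These were 4 reads against 166, a ratio of 39.4 with an exact 95% interval of 15.1 to 146 that covers counting error only. ABI5 BraA04002806 was weak in both groups, with 0, 0 and 1.08 against 8.07, 3.70 and 6.54. That was 1 read against 19, a ratio of 17.0 with an interval of 2.86 to 747. Neither weak row overlapped between groups, and the authors' deposited table gave adjusted p-values of 5.77e-20 for BraA05001991 and 0.0226 for BraA04002806. The identifiers BraA05001987 and BraA05001991 lie close together in number, and whether the 2 rows share reads was not tested. The match of BraA05001991 to ABI5 had an E-value of 1.82e-26, weaker than the 4.31e-157 of BraA05001987.

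ABF1, which relays abscisic acid signals to stress genes in Arabidopsis, had 3 rows that split. BraA06002107 had 37.5, 45.4 and 35.6 normalised counts in autotetraploid and 17.0, 16.6 and 15.3 in doubled haploid libraries. BraA06002110 had 82.0, 137 and 95 against 50.2, 57.3 and 65.4. Both rows were higher in every autotetraploid library, with log2 fold changes of 1.28 (adjusted p 0.0024) and 0.86 (adjusted p 0.0158) in the authors' deposited table. Their identifiers are also close in number and shared reads were not tested. The match of BraA06002107 to ABF1 was weak, with an E-value of 4.27e-09. The ABF1 row with the most reads, BraA01003678, was lower, with 355 against 537 in the authors' deposited table (log2 fold change -0.60, adjusted p 1.71e-07). Its doubled haploid libraries stood at 504, 549 and 557, and 3 of 5 builds of the autotetraploid mean kept the groups apart.

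ABF3, a bZIP factor of drought responses in Arabidopsis, was modestly higher: BraA01000449 had 665, 699 and 688 normalised counts in the doubled haploid libraries. Means of 944 and 684 stood in the authors' deposited table (log2 fold change 0.47, adjusted p 7.07e-07), and 4 of 7 builds kept the groups apart. DPBF4, known in Arabidopsis as a seed factor that competes with ABI5 for its target promoters, was lower. BraA04002980 had 271, 293 and 296 in doubled haploid libraries, and the authors' deposited table gave 206 against 287 (log2 fold change -0.48, adjusted p 0.00138). For DPBF4 1 of 2 builds kept the groups apart.

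**Figure D3:**
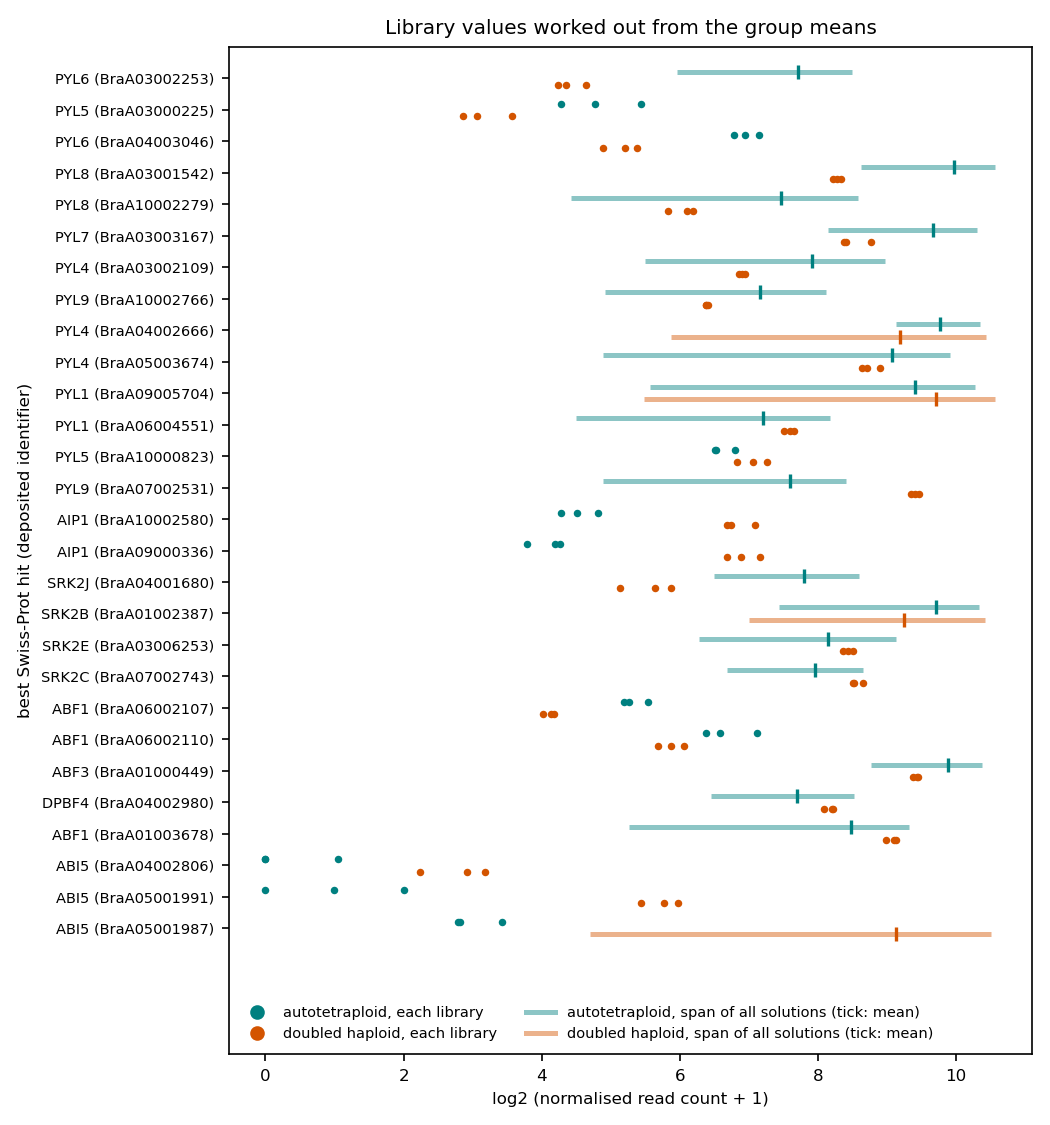
Library values of the 28 genes with both group means under 1000, as log2(normalised read count + 1). Points are single libraries where 1 build in whole reads exists, and bars span all builds with a tick at the mean; the 9 genes with points in both groups show no overlap.

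Of the 28 genes with both means under 1000, 14 did not overlap between groups in any build, near the 46.3% of all such listed genes. The 9 genes with a single build in both groups all kept the groups apart, as did 99.2% of listed genes of that kind. The limma fit called all 9, as it called 99.9% of those genes, which were listed because they differed, so nothing is read from the calls. Its log2 fold changes for the 9 ran from -4.73 ± 0.48 (SE) for ABI5 BraA05001991 to 1.80 ± 0.19 (SE) for PYL6 BraA04003046. The value for ABI5 BraA05001991, with 4 reads in one group, was set in part by the pseudocount: over the genes with both means under 100 it was -4.73 with a pseudocount of 1, -5.25 with 0.5 and -3.20 with 5.

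Genes that share a best match did not always share a direction. Of the 18 matched proteins, 10 had more than 1 row. The rows were all higher for 3 of them (PYL4, PYL6 and PYL8), all lower for 4 (PYL1, PP2CA, AIP1 and ABI5) and split for 3 (PYL5, PYL9 and ABF1). Chinese cabbage descends from an ancestor with a triplicated genome, and reads of near-identical copies could be split between rows by the authors' counting. By the chromosome code in the identifiers, 5 of the receptors carried A03 and all 5 were higher, where 55.4% of all listed A03 genes were higher. Code A01 had the lowest share, with 27.9% of 1284 listed genes higher, and 2 of its 4 members were higher. The lower members with that code were PP2CA BraA01004288 and ABF1 BraA01003678.

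The steps before and after the receptors were described from fixed lists of protein names. Of 10 synthesis enzymes 6 were lower, and 2 rows of NCED3, the rate-limiting enzyme of synthesis, had log2 fold changes of -2.42 (BraA01004044) and -1.35 (BraA05002464) in the authors' deposited table. Of 6 rows of the 8'-hydroxylases that break the hormone down 5 were lower, and 2 rows of CYP707A3 had 263 against 12625 (BraA06000244, log2 fold change -5.58) and 280 against 5524 (BraA09005587, -4.30) in the authors' deposited table. Of 4 transporter rows the 3 of ABCG25, an exporter of the hormone, were lower. NPF4.6, an importer, was higher, with 2574 against 1628 in the authors' deposited table (BraA07004427, log2 fold change 0.66, adjusted p 3e-19). Among 13 other proteins named for the hormone 9 were lower, among them the bHLH factor AIB (BraA05004340), with 286 against 898 in the authors' deposited table. Both rows of BGLU18, which frees the hormone from its glucose ester in Arabidopsis, were higher. BraA06001927 had 163 reads against 2, a ratio of 93.3 with an exact 95% interval of 23.5 to 717, and BraA05000884 had 57 against 5, a ratio of 12 with an interval of 4.87 to 38.5.

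Proteins that control the turnover of receptors, phosphatases or ABI5 split 9 higher and 8 lower of 17. RGLG1, a ubiquitin ligase that marks PP2CA for destruction in Arabidopsis, had 4 rows, 3 lower and 1 higher. BraA05003519 went from 708 to 186 and BraA03003233 from 223 to 79.0 in the authors' deposited table, with log2 fold changes of -1.93 and -1.50. The RGLG1 row with the most reads, BraA06003595, was higher at 1637 against 1086 in the authors' deposited table (log2 fold change 0.59, adjusted p 2.46e-13).

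Relatives of the phosphatases and kinases were mostly lower, while the SnRK2 kinases themselves split 2 and 2. Among all listed genes 50% were lower, with 23.0% at least 2-fold lower and 16.6% at least 2-fold higher. Of 48 other PP2Cs 38 were lower, 24 of them at least 2-fold, and none was at least 2-fold higher. The 2 with the smallest adjusted p were rows matching protein phosphatase 2C 25, with 2619 against 14469 (Novel00671) and 3337 against 17709 (BraA04002543) in the authors' deposited table. Of 28 SnRK1 and SnRK3 kinases, which act in energy and calcium signalling, 22 were lower, with a median log2 fold change of -0.74. Of 9 regulatory subunits of SnRK1 6 were lower and 3 higher, with a median of -0.40.

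Of 10 guard cell channels and oxidases 8 were lower, with a median log2 fold change of -1.19, where 50% of all listed genes were lower. KAT1, KAT2 and SLAC1 in this list are also among the guard cell markers above. RBOHD, the oxidase that makes superoxide at the plasma membrane, had 1203 against 8235 (BraA06002707) and 4498 against 17389 (BraA02003866) in the authors' deposited table. SLAC1, the anion channel through which guard cells lose turgor, was higher at 379 against 170.5 in the authors' deposited table (BraA08002388, log2 fold change 1.15, adjusted p 1.25e-12). A list of 21 rows, matched by name to proteins induced by the hormone or by drought, took in cold-regulated and HVA22-like proteins. Of these 21 rows 16 were lower, with a median of -1.24, and their induction by the hormone was not tested. The 2 with the smallest adjusted p in the authors' deposited table were dehydrin ERD14, lower at 5634 against 25480 (BraA07003914), and a LEA5 row, higher at 11035 against 845 (BraA10002852).

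**Figure D4:**
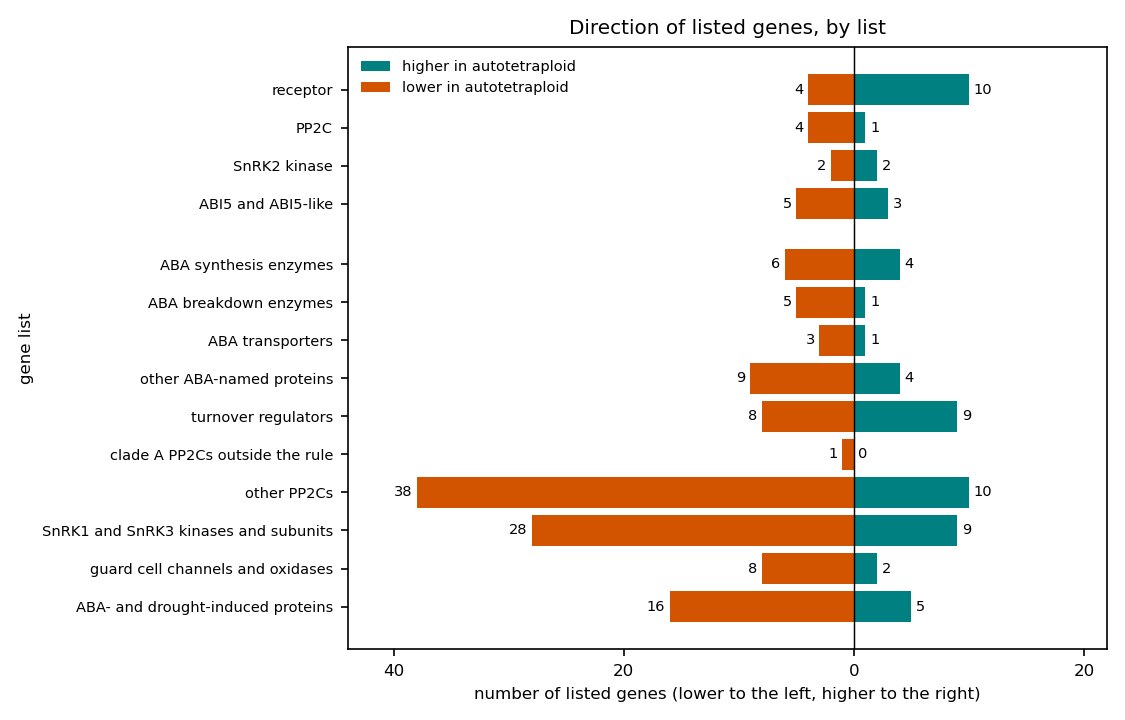
Number of listed genes that were higher (right) or lower (left) in autotetraploid leaves, for the 4 roles and for the fixed lists of related proteins. The receptors are 10 higher and 4 lower, and the other PP2Cs 10 higher and 38 lower.

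The values are relative to the other genes of a library, and mRNA per cell was not measured. Under the authors' scaling the median log2 fold change of listed genes with a mean of at least 100 was 0.24. Centring on that median, or making the sums over listed genes equal, reversed 0 of the 31 genes. Neither could, since the log2 shifts of 0.24 and 0.06 lowered all values by less than the smallest positive one. That value, 0.32 for PYL4 BraA05003674, became 0.08 on centring. Centring also took ABI1 from 1.20 to 0.96, PYL7 from 1.13 to 0.90 and PYL4 BraA03002109 from 1.02 to 0.79, each then under 2-fold.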

How the data were processed

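Leaf mRNA was sequenced in 3 doubled haploid and 3 autotetraploid libraries, grouped by the ploidy label. The deposited table holds, per the file headers, group read counts, which from their values are means of normalised counts (a signal, not FPKM), the authors' log2 fold change and the authors' p-values, raw and adjusted. The submitters' processing notes name DESeq 1.18.0, HTSeq 0.6.1, Bowtie2 2.2.3 and TopHat2 2.0.12, with no roles. The genome build and annotation are not given in the sources used here, nor is any use of strand, and 0 member identifiers were found in the RefSeq gene table, so no coordinates or sequences are given. Total reads per library are not given.

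Reads of each library were worked out by solving each mean as a sum of whole reads over size factors fitted to the smallest means. Means under 100 all had 1 solution. Of autotetraploid means from 100 to 200, 28.6% had 1, and above 200 none did, so the span over all solutions is given there. Of 500 shifted means per group, drawn from means between 1 and 100, 0 could be solved. In a simulation 100% of 4888 means under 100 gave back their reads. Neither check covered means of 100 or more. limma 3.58.1 (R 4.3.3) was fitted to log2(normalised count + 1), two-sided, with Benjamini-Hochberg adjustment. The fit covered 2590 genes with both means under 100, with 4 members, and, chosen after seeing the data, 3911 genes with a single solution in both groups, with 9 members. Among the 2590 genes of a simulation, 90.0% of 200 genes changed 4-fold were called in the right direction and 0.50% of unchanged genes were called. An exact permutation test of 3 against 3 libraries cannot go below 0.1 and was not used. Intervals on read ratios are exact and cover counting error only.

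Members and lists were chosen with earlier results of these data known. Named members are those with the smallest adjusted p, the minority direction, the highest mean or a single solution in whole reads. From each list at most 2 genes with the smallest adjusted p were named; the doubled haploid library values of further members, SLAC1 as a listed guard cell marker, and protein phosphatase 2C 78 are also given. RGLG1 BraA06003595 and BGLU18 BraA05000884 were added after their values were seen, as further rows of proteins already named. The zeaxanthin epoxidase and xylem cysteine proteinase rows were also added after their values were seen, as higher rows of the synthesis and vascular lists. EPF1 and EPFL9 were added then too, as patterning peptides among the guard cell markers. List patterns were restricted to the start of words in protein names after stray matches to accessions were seen. Alternatives covered the p limit, low means, rows per match, fold size, chromosome code A01, scaling, pseudocount, variance trend and left-out libraries.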

Additional observations from a re-analysis of the deposited data

How the results depend on the processing

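Under the alternatives on rows and scaling, the share of rows lower ran from 11.1% to 42.9% for receptors (28.6% as reported), from 66.7% to 80% for PP2Cs (80%) and from 60% to 75% for the ABI5 group (62.5%). For the 4 SnRK2 kinases it was 50%, 33.3% with an adjusted p under 0.001, 66.7% without chromosome code A01, and 0% among those changed at least 2-fold, where 1 gene is left and it was higher. The median log2 fold change of the SnRK2 kinases changed from 0.09 to -0.15 when centred on the median of listed genes. For the limma fit with both means under 100, which called 2587 of 2590 genes, leaving out each library gave 2444 to 2494 calls, and pseudocounts of 0.5 and 5 or a variance trend gave 2581 to 2590. With at least 5 in the higher group it called 2566 of 2569. Over genes with a single solution in both groups it called 3906, and 3741 to 3791 with a library left out. Of the 9 members in that fit, PYL5 BraA10000823 alone lost its call, in 4 of the 6 fits with a library left out; the cause was not tested. No paired analysis was possible because the libraries worked out from the group means carry no replicate number. Depth per library is unknown, and the 3 members with means of 1000 or more have no spread here.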
